A study of Rattus norvegicus with 48 samples.

Results

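The miR-99/100 and miR-125 families were described in small RNA sequencing of 4 nephron segments cut from rat kidney by laser capture. Members were chosen by name alone: each mature miRNA of the deposited table whose name starts with miR-99a, miR-99b, miR-100, miR-125a or miR-125b, from either arm of its hairpin. This rule found 9 of the 188 miRNAs measured. They were 5 miRNAs of the 5p arm, rno-miR-99a-5p, rno-miR-99b-5p, rno-miR-100-5p, rno-miR-125a-5p and rno-miR-125b-5p, and 4 of the 3p arm, rno-miR-99b-3p, rno-miR-125a-3p, rno-miR-125b-1-3p and rno-miR-125b-2-3p. The prefix rno, for rat, is left off from here on. With the values as deposited, none of the 9 passed the test for a difference between segments. The member that stood out was miR-100-5p, whose value changed with the flow cell on which the same library had been run.

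A miRNA is cut from a hairpin RNA, and either arm of the hairpin can be loaded into an Argonaute protein, where its bases 2 to 8, the seed, pair with target mRNAs. The miR-125 family is related to lin-4, the founding miRNA of the worm, and in vertebrates its genes often lie beside genes of the miR-99/100 and let-7 families. Mammalian mTOR is among the known targets of miR-99 and miR-100, and Lin28 among those of miR-125.

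The 11 libraries came from 3 untreated male Sprague-Dawley rats aged 6 months, whose frozen kidneys were sectioned at 8 µm. Proximal tubule, collecting duct and thick ascending limb (the upward part of the loop of Henle) gave 1 library from each rat, and the glomerulus gave libraries labelled rat 1 and rat 3 only. Tubule segments were picked under fluorescence by antibody to glutathione S-transferase, Tamm-Horsfall protein or aquaporin-2 and glomeruli by a histochemical stain, so that staining and segment cannot be told apart between glomerulus and tubules. Every library was run on 4 flow cells, named A to D. The study set out to link miRNAs that appear in urine with the nephron segment they come from. In captured tissue of this kind, fewer cells of a type and less RNA per cell cannot be told apart.

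The sequences show which members share a seed, and therefore could pair with the same targets. For miR-99a-5p no mature sequence was matched in RefSeq (build GRCr8), so its seed was not compared. RefSeq held mature sequences for 8 of the 9 members. They are written 5′ to 3′ with the seed in capitals.
miR-99b-5p: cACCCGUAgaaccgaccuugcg
miR-100-5p: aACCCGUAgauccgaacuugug
miR-125a-5p: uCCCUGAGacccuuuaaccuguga
miR-125b-5p: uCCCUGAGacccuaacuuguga
miR-351-5p: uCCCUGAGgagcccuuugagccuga
miR-99b-3p: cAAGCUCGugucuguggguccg
miR-125a-3p: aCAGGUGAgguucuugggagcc
miR-125b-1-3p: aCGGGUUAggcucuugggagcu
miR-125b-2-3p: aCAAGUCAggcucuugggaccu
The miR-99/100 seed ACCCGUA was shared by miR-99b-5p and miR-100-5p, which differ at 4 of 22 positions counted from the 5′ end of miR-99b-5p (C1A, A11U, C16A and C21U). The miR-125 seed CCCUGAG was shared by miR-125a-5p, miR-125b-5p and miR-351-5p, which is no family member by name. The 2 miR-125 guide arms are identical over their first 13 bases, and each shares its first 8 with miR-351-5p. The 4 members of the 3p arm had 4 different seeds, none of them shared with another of the 172 miRNAs for which a sequence was found.

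Genomic positions are those of RefSeq on GRCr8, not of the rn6 build used upstream. The mature miR-99b-5p lies at chr1:67350070-67350091 and miR-125a-5p at chr1:67350689-67350712, both on the plus strand. Their hairpins are 541 bases apart, with Mirlet7e, the gene of let-7e, between them, and the protein-coding gene Spaca6 spans all of this stretch. The mature miR-100-5p lies at chr8:50798307-50798328 and miR-125b-1-3p at chr8:50850090-50850111, on the plus strand with 51.7 kb between their hairpins and Mirlet7a-2 between them. The genes Mir100hgl and Lnc215 span both. RefSeq places miR-125b-2-3p at chr11:29732627-29732648. The hairpins of Mir99b, Mir125a and Mir125b1 follow with the named arms in capitals, since the arms counted here leave the same precursor.
Mir99b: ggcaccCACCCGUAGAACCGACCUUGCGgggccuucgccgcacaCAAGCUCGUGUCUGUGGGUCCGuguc
Mir125a: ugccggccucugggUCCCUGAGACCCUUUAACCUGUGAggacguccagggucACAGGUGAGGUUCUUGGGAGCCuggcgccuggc
Mir125b1: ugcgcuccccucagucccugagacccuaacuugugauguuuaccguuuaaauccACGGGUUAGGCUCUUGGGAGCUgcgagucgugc
The letters of miR-125b-5p, which RefSeq lists at chr11:29732588-29732609 in Mir125b2, occur also in the Mir125b1 hairpin shown here, where they are in lower case. Reads of miR-125b-5p therefore belong to either gene, while the 2 miR-125b 3p arms tell the genes apart. How reads with mismatches were shared among the near-identical 5p members is not given in the sources used here.

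Values are the authors' TMM-normalized signal, averaged over the 4 runs of a library, and are not corrected for length, which was 22 to 24 bases for the members with a sequence. The estimated reads behind the 188 miRNAs ranged from 147996 to 1296993, with rat 3 giving both the shallowest library, its glomerulus, and the deepest, its thick ascending limb. The glomerulus library of rat 3 was also the lowest in summed value, 77457 against 115865 to 255518 in the other 10, and held 51 miRNAs at 0. The proximal tubule miRNAs miR-192-5p and miR-194-5p summed to 21130 to 26367 in proximal tubule and to 777 to 4280 in the other segments. The epithelial miR-200 list, with 4 of 5 members measured, summed to 36.1 to 128 in the glomerulus and to 412 to 1595 in the tubules. The endothelial miR-126a arms summed to 4299 to 6290 in the glomerulus and to 1158 to 3170 in the tubules. The smooth muscle, pericyte and mesangial miRNAs miR-143-3p and miR-145-5p summed to 10382 to 16388 in the glomerulus and to 4781 to 8080 in the tubules. The blood cell list, with 2 of 7 measured, summed to 78.7 to 117 in the glomerulus and to 73.0 to 118 in the collecting duct. It summed to 24.1 to 51.6 in proximal tubule and 25.1 to 39.0 in thick ascending limb. The part of other cell types in the member values was not tested.

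Among the miR-99/100 guide arms, miR-99b-5p was the most abundant. Its value was 1132, 1525 and 1456 in the proximal tubule of rats 1, 2 and 3, and 1219 and 559 in the glomerulus of rats 1 and 3. In the thick ascending limb it was 1030, 773 and 1202, and in the collecting duct 1148, 1471 and 1230. Only the glomerulus of rat 3 lay apart, below all 10 other libraries, and the ranges of all 4 segments overlapped. The segment means were 1371 ± 210 (SD, n = 3) in proximal tubule, 889 ± 467 (SD, n = 2) in glomerulus, 1002 ± 216 (SD, n = 3) in thick ascending limb and 1283 ± 168 (SD, n = 3) in collecting duct. By mean value miR-99b-5p ranked 18th, 21st, 16th and 17th of 188 in these segments.

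For miR-99a-5p the values were 133, 265 and 173 in proximal tubule, and 165 and 51.1 in the glomerulus of rats 1 and 3. They were 130, 103 and 178 in thick ascending limb and 189, 333 and 174 in collecting duct. The collecting duct mean was 232 ± 87.8 (SD, n = 3) and the thick ascending limb mean 137 ± 37.7 (SD, n = 3). The highest library in both the proximal tubule and the collecting duct was that of rat 2. Collecting duct lay above glomerulus without overlap, and the other pairs of segments overlapped.

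At 57.3, 63.9 and 69.8 in the 3 proximal tubule libraries, miR-100-5p was the lowest of the 5 guide arms. The glomerulus libraries of rats 1 and 3 held 124.8 and 39.4, the highest and the lowest of all 11. Thick ascending limb held 81.8, 81.2 and 93.6, all above the 3 proximal tubule libraries, and collecting duct held 77.7, 87.6 and 66.3. In limma the log2 difference of proximal tubule minus thick ascending limb was -0.42 ± 0.63 (SE), with an adjusted p of 0.807. So the separation of these 3 and 3 libraries did not exceed the spread that the fit assigned to miRNAs of this abundance.

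The passenger arm miR-99b-3p was near the limit of detection. It gave 13, 53 and 9 estimated reads in the proximal tubule of rats 1, 2 and 3, with values of 4.13, 10.1 and 6.70. The glomerulus of rat 1 held 4.29 and that of rat 3 held 0. Thick ascending limb held 1.67, 0 and 1.66, and all 12 collecting duct runs held 0. A count of 0 over the collecting duct group allows a value of up to 0.289, taken as 3 reads, and this limit covers counting error only. Proximal tubule minus collecting duct was 2.56 ± 1.13 (SE) on the log2(value + 1) scale, a difference that depends on the pseudocount and is no bound, with a limma adjusted p of 0.133. With array weights, which give noisy libraries less weight, the difference was 2.69 and the adjusted p 0.0305. These weights also raised the share of all 188 miRNAs called in this pair, from 10.1% to 22.3%.

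The most abundant member in every library was miR-125a-5p. Its value was 1976, 2313 and 2894 in the proximal tubule of rats 1, 2 and 3. The glomerulus held 3255 in rat 1 and 981 in rat 3. Thick ascending limb held 2663, 2019 and 2706, and collecting duct held 3121, 4573 and 3910. All 3 collecting duct libraries were above all 6 libraries of the other tubule segments, while the glomerulus of rat 1 lay inside the collecting duct range. The collecting duct mean was 3868 ± 727 (SD, n = 3), against 2395 ± 464 (SD, n = 3) in proximal tubule and 2463 ± 385 (SD, n = 3) in thick ascending limb. By mean value miR-125a-5p ranked 14th in proximal tubule, 10th in glomerulus, 12th in thick ascending limb and 9th in collecting duct.

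The difference of miR-125a-5p between proximal tubule and collecting duct turned on the scaling. With the values as deposited it was -0.70 ± 0.45 (SE) on the log2 scale, with a 95% confidence interval from -1.58 to 0.19 and a limma adjusted p of 0.369. Scaled by the median of ratios between libraries it was -0.72 with an adjusted p of 0.00837, and after quantile normalization -0.61 with an adjusted p of 0.0127. These scalings also raised the share of all 188 miRNAs called in this pair, from 10.1% to 21.8% and 18.6%. With the same total in every library it was -0.47 and the adjusted p 0.0940. The direction was the same under the 4 scalings and the call was not.

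The other miR-125 guide arm, miR-125b-5p, held about an order of magnitude less than miR-125a-5p. Its values were 221, 184 and 201 in proximal tubule, 186 and 70.3 in the glomerulus of rats 1 and 3, 154, 179 and 203 in thick ascending limb, and 218, 322 and 209 in collecting duct. Proximal tubule overlapped with both other tubule segments, thick ascending limb and collecting duct did not overlap, and the glomerulus of rat 3 was again the lowest library. The collecting duct mean was 250 ± 63.0 (SD, n = 3), and the proximal tubule mean 202 ± 18.7 (SD, n = 3). The ratio of miR-125a-5p to miR-125b-5p ranged from 8.92 to 18.7 over the 11 libraries, where each value is the mean of a library's 4 runs.

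Of the miR-125 passenger arms, miR-125b-2-3p had the highest mean in the 3 tubule segments and in the glomerulus, although in the glomerulus of rat 3 miR-125a-3p was higher, at 11.8. It held 40.4, 72.4 and 59.0 in proximal tubule, 82.7, 32.1 and 56.0 in thick ascending limb and 46.1, 62.3 and 50.5 in collecting duct. The glomerulus held 49.5 in rat 1, inside the tubule range, and 7.29 in rat 3, from 15 estimated reads and below every other library. The arm of the other gene, miR-125b-1-3p, held 4.82 to 25.3 in proximal tubule, 24.0 and 0 in the glomerulus of rats 1 and 3, 7.28 to 12.3 in thick ascending limb and 8.68 to 19.2 in collecting duct. In all 10 libraries where both were above 0, miR-125b-2-3p was higher than miR-125b-1-3p, by 1.59-fold to 15.02-fold in the library values. The values of miR-125a-3p ran from 4.47 to 20.6 with the range of every segment covering 6.56 to 11.8, and the highest library was the proximal tubule of rat 1.

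**Figure D1:**
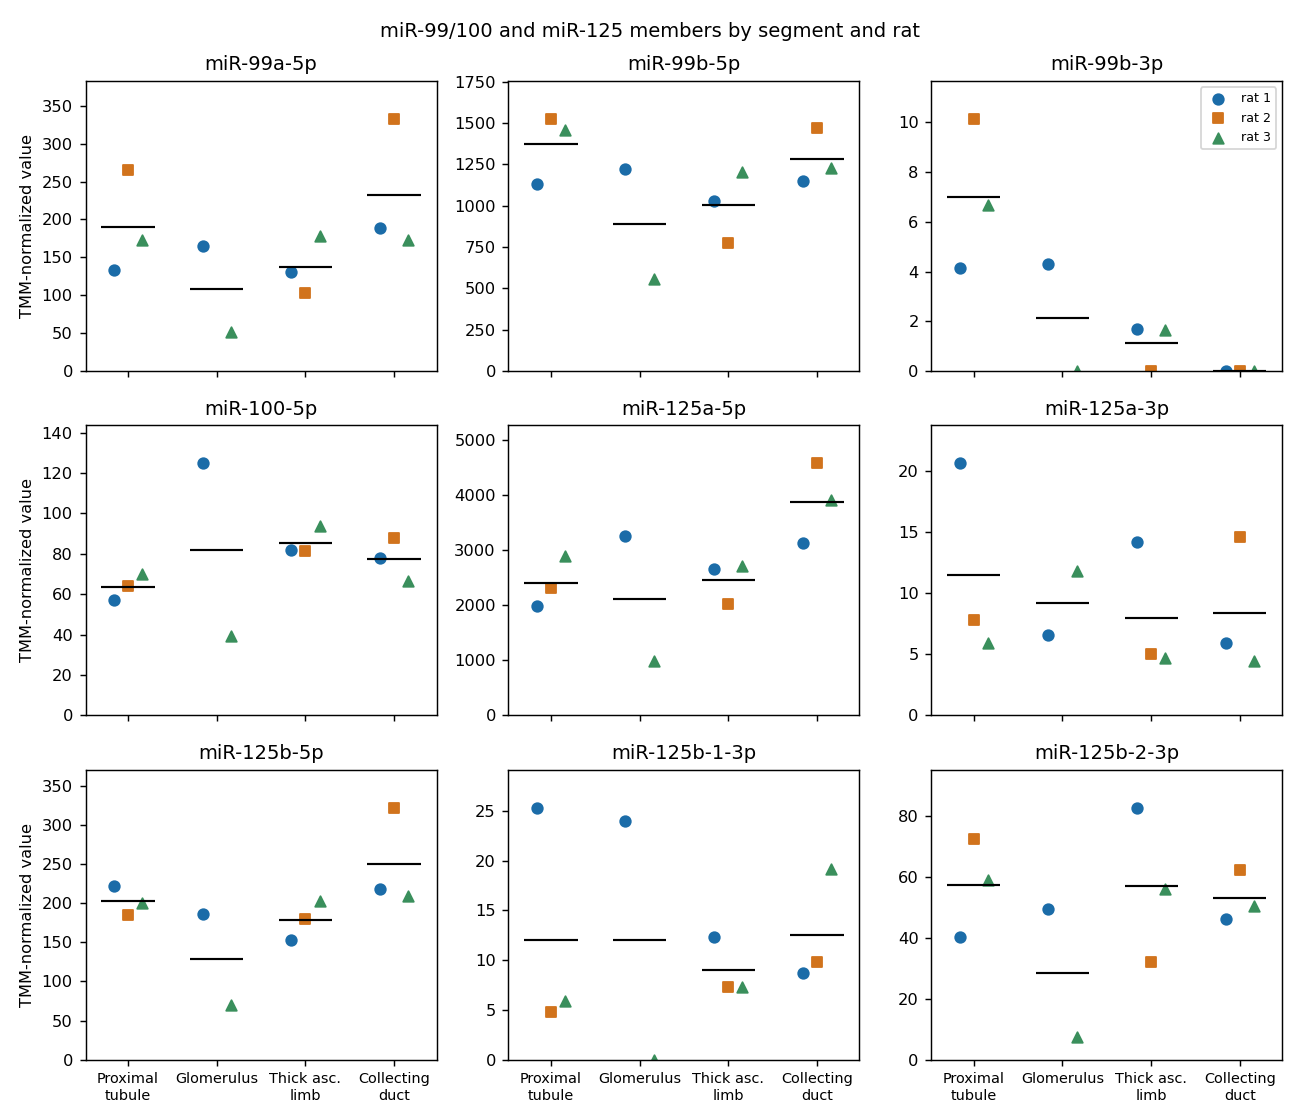
Values of the 9 members (TMM-normalized signal, linear axis from 0) in each library by segment, with 1 symbol per rat and a bar at the segment mean. In 8 of the 9 panels the glomerulus of rat 3 is the lowest library or shares the value 0 with others, and the collecting duct libraries of miR-125a-5p sit above the other tubule libraries.

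Segments were compared with limma on log2(value + 1), with segment and rat in the model and Benjamini-Hochberg adjustment over all 188 miRNAs. Across the 4 segments 0 of 9 members passed at an adjusted p of 0.05, against 24.5% of all miRNAs, and 0 of 9 had an unadjusted p below 0.05. Their adjusted p-values ran from 0.290 to 0.976. Between glomerulus and the mean of the 3 tubule segments 0 of 9 passed, against 19.7% of all miRNAs. The member nearest to the threshold was miR-125b-2-3p, at -1.60 ± 0.69 (SE) with an adjusted p of 0.0868, and it was the only member of 9 with an unadjusted p below 0.05. The median log2 difference of the members was -0.67, beside -0.56 for all 188, so that members and table lay below 0 by a similar amount. With the same total in every library the median over all miRNAs moved to -0.08 and that of the members to -0.05.

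In the pairwise comparisons 0 of 9 members passed in each of 6. The share of all miRNAs that passed was 17.6% for proximal tubule against glomerulus, 7.98% for proximal tubule against thick ascending limb and 10.1% for proximal tubule against collecting duct. It was 11.2% for glomerulus against thick ascending limb, 14.9% for glomerulus against collecting duct and 2.13% for thick ascending limb against collecting duct. An unadjusted p below 0.05 was found for miR-125b-2-3p in the 3 pairs that hold the glomerulus, for miR-125a-5p in glomerulus minus collecting duct, where the log2 difference was -1.12 ± 0.52 (SE), and for miR-99b-3p in proximal tubule minus collecting duct. The median member difference lay between -1.05 for glomerulus minus collecting duct, where all miRNAs had a median of -0.61, and 0.78 for proximal tubule minus glomerulus, where they had 0.77. The 95% intervals of the guide arms remained wide: for miR-99b-5p, proximal tubule minus collecting duct was 0.09 with an interval from -0.81 to 0.99.

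**Figure D2:**
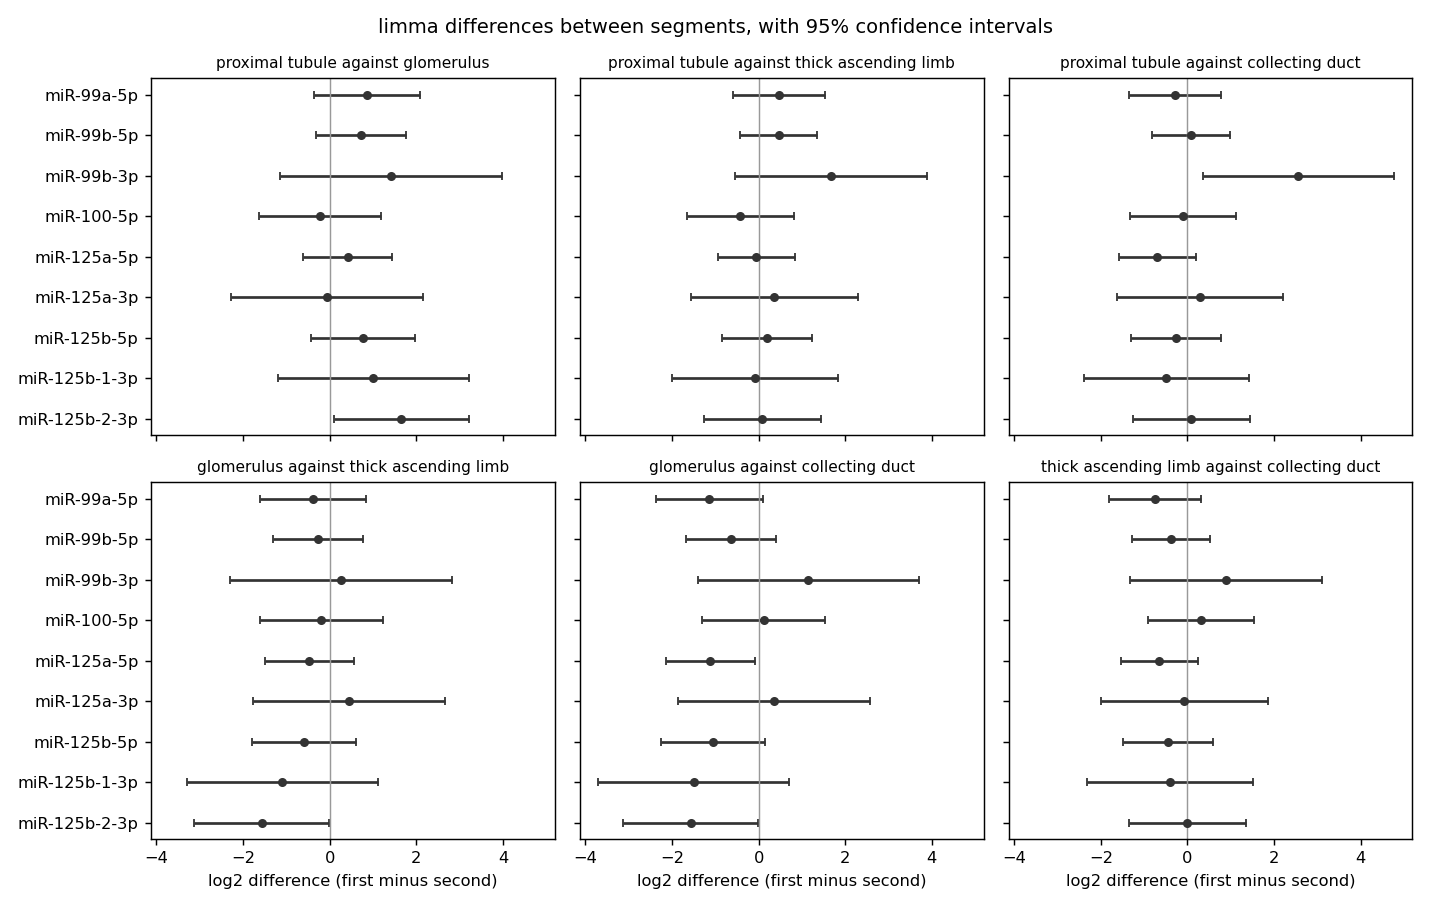
Log2 differences of the 9 members between segments from limma (points) with 95% confidence intervals (lines), 1 panel per pair of segments. The intervals that exclude 0 are those of miR-125b-2-3p in the 3 pairs with the glomerulus, of miR-125a-5p in glomerulus against collecting duct and of miR-99b-3p in proximal tubule against collecting duct, and none passed after adjustment.

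The comparisons with the glomerulus rested on 2 libraries that disagreed, and leaving out the glomerulus of rat 1 changed the calls. Without it, the glomerulus is the single library of rat 3, assumed to vary like the other segments. Then 6 of 9 members passed as lower in glomerulus than in the 3 tubule segments, among them miR-125a-5p at -1.69 (limma adjusted p 2.68e-04), miR-99a-5p at -1.76 and miR-125b-2-3p at -3.08. In that fit 38.3% of all 188 miRNAs were called. Likewise 5 members passed across the 4 segments (45.2% of all miRNAs), 5 against proximal tubule (38.8%), 2 against thick ascending limb (23.4%) and 6 against collecting duct (35.6%). Leaving out all libraries of rat 1, 1 member passed across the 4 segments (18.6% of all miRNAs), 3 against proximal tubule (26.1%), 0 against thick ascending limb (12.2%), 2 against collecting duct (22.3%) and 2 against the 3 tubule segments (23.9%). Without the glomerulus of rat 3 instead, the log2 difference of miR-125a-5p, glomerulus minus tubules, was 0.36, with the sign reversed. The glomerulus of rat 3 had the fewest reads and the lowest summed value of all libraries, and these differences include that low scale. As a share of its summed value the 9 members made up 2.22%, against 2.31% to 3.03% in the tubule libraries. For miR-125a-5p the share was 1.27%, against 1.33% in the lowest tubule library. For miR-125b-2-3p it was 0.00941%, against 0.0244% in the lowest tubule library.

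Within libraries, 8 ratios and 6 sums were tested by an exact permutation of segment labels within rats (3456 permutations, smallest possible p 0.00174). The ratios were tested as the difference in log2(value + 1), averaged over the 4 runs, so those of low members depend on the added 1. The ratios printed are those of the library means, with nothing added. After Benjamini-Hochberg adjustment over the 14 tests 0 passed. The lowest p was that of the seed partners miR-99b-5p and miR-100-5p, p = 0.0191 and adjusted p = 0.243 in the exact permutation test. Their ratio was 21.5 ± 2.14 (SD, n = 3) in proximal tubule and 16.7 ± 1.89 (SD, n = 3) in collecting duct. It was 11.98 ± 3.13 (SD, n = 2) in glomerulus and 11.7 ± 1.85 (SD, n = 3) in thick ascending limb. All 6 libraries of proximal tubule and collecting duct, at 14.8 to 23.9, lay above all 5 of glomerulus and thick ascending limb, at 9.52 to 14.2, but the gap was narrow, between 14.8 in the collecting duct of rat 1 and 14.2 in the glomerulus of rat 3. Averaged over runs on the log2 scale the same groups lay at 16.8 to 25.3 and 9.76 to 14.0. The separation did not hold on every single flow cell. On A alone the collecting duct of rat 2 (1436 over 163) lay below the thick ascending limb of rat 1 (1032 over 95.1). On B alone the collecting duct of rat 1 (1148 over 112) lay below the glomerulus of rat 3 (599 over 41.1). On C and on D alone the groups did not overlap. With the ratio of the library means in the test, an alternative added later, the exact p was 0.0139 and the adjusted p 0.146. On flow cell B alone the exact p was 0.00174, the smallest the permutations can give, with an adjusted p of 0.0243, and on flow cell C alone it was 0.0868.

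The cluster neighbours miR-99b-5p and miR-125a-5p gave a ratio of 0.578 ± 0.0783 (SD, n = 3) in proximal tubule, 0.405 ± 0.0343 (SD, n = 3) in thick ascending limb and 0.335 ± 0.0289 (SD, n = 3) in collecting duct. The 3 proximal tubule libraries, at 0.503 to 0.659, were above the 6 of the other tubule segments, at 0.314 to 0.444. The glomerulus libraries of rats 1 and 3, at 0.375 and 0.570, spread over both ranges. In each rat the ratio fell from proximal tubule to thick ascending limb to collecting duct. The exact permutation test over all segments, glomerulus included, gave p = 0.0608 and an adjusted p of 0.284, and did not pass. Because that test takes in the glomerulus libraries, it does not decide the order among the tubule segments alone. The other neighbours, miR-100-5p and miR-125b-5p, had a ratio of 0.318 ± 0.0511 (SD, n = 3) in proximal tubule, 0.615 ± 0.0774 (SD, n = 2) in glomerulus, 0.483 ± 0.0440 (SD, n = 3) in thick ascending limb and 0.315 ± 0.0426 (SD, n = 3) in collecting duct. Its p was 0.0347 in the exact permutation test, with an adjusted p of 0.243. Without the rat in the permutation, both ratios that hold miR-100-5p passed, each with an adjusted p of 0.0473.

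Arm ratios spread widely between rats of the same segment. The ratio of miR-125a-5p to miR-125a-3p ran from 82.9 to 496 in the 2 glomerulus libraries alone and from 82.9 to 875 over all 11, and its exact permutation p was 0.547. The ratio of miR-125b-5p to miR-125b-2-3p ran from 1.86 to 9.64, with an exact permutation p of 0.563. The 5p arm exceeded its 3p arms in all 11 libraries, and no ratio over miR-125b-1-3p was formed in the glomerulus of rat 3, where that arm was listed at 0.

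As a share of the summed values of a library, the 3 miR-99/100 guide arms made up 0.920% ± 0.133 (SD, n = 3) in proximal tubule, 0.876% ± 0.0534 (SD, n = 2) in glomerulus, 0.851% ± 0.0216 (SD, n = 3) in thick ascending limb and 0.765% ± 0.0229 (SD, n = 3) in collecting duct. All 3 collecting duct libraries, at 0.740% to 0.785%, were below the other 8, and the exact permutation p was 0.115 (adjusted p 0.401). The 2 miR-125 guide arms made up 1.46% ± 0.0206 (SD, n = 3) in proximal tubule, 1.85% ± 0.142 (SD, n = 3) in thick ascending limb and 1.98% ± 0.1995 (SD, n = 3) in collecting duct, and 2.08% and 1.36% in the glomerulus of rats 1 and 3. The 3 proximal tubule libraries, at 1.44% to 1.47%, were below the other 6 tubule libraries, with an exact permutation p of 0.247 (adjusted p 0.674) over the 4 segments. These shares depend also on the miRNAs that dominate a library: miR-10a-5p alone held 49.2% ± 0.687 (SD, n = 3) in thick ascending limb and 25.1% ± 1.97 (SD, n = 3) in proximal tubule.

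**Figure D3:**
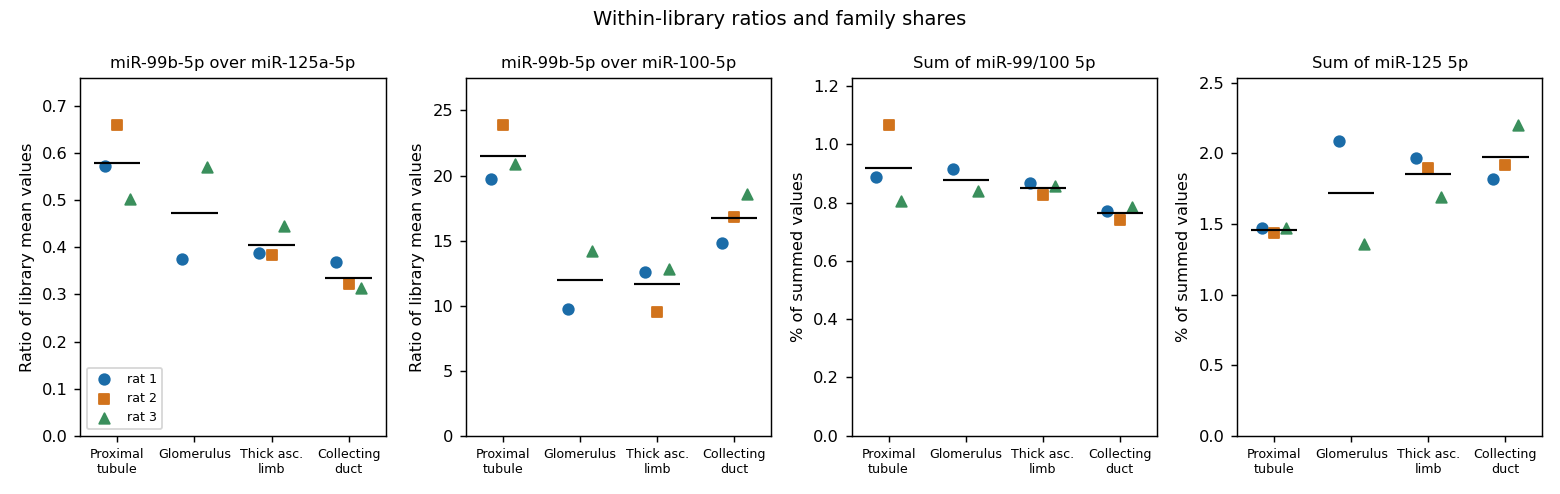
Ratios of library mean values (no pseudocount) and shares of the summed values (linear axes from 0) by segment, with 1 symbol per rat and a bar at the mean. The ratio of miR-99b-5p to miR-100-5p is 14.8 to 23.9 in the 6 proximal tubule and collecting duct libraries and 9.52 to 14.2 in the 5 others. That split does not hold on flow cell A or B alone, and holds on C and on D alone. The 3 proximal tubule libraries have the highest ratios of miR-99b-5p to miR-125a-5p among the tubules.

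The same libraries gave different values of miR-100-5p on different flow cells. In the collecting duct of rat 2 the value was 163 on flow cell A, 122 on B, 40.6 on C and 25.0 on D, from 145, 110, 39 and 8 estimated reads. In the collecting duct of rat 1 it was 117, 112, 49.8 and 31.3, and in that of rat 3 it was 102, 94.7, 40.9 and 27.5. All 3 libraries were thus higher on A and B than on C and D. In every library D was the shallowest run and C the deepest. For the collecting duct of rat 2 the estimated reads were 224231 on A, 232127 on B, 252436 on C and 80024 on D. The run names of A and B begin with the letter A and those of C and D with B. Whether depth or this naming bears on the step was not tested. The thick ascending limb of rat 3 held 130 and 136 on A and B, and 56.4 and 51.8 on C and D. The proximal tubule of rat 1 held 74.5 and 90.1, and then 36.1 and 28.5. In the glomerulus the values were 143, 115, 105 and 136 for rat 1 and 49.2, 41.1, 32.8 and 34.4 for rat 3.

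The mean of A and B was above the mean of C and D in 11 of 11 libraries, on the log2 scale by 0.10 to 2.08 with a median of 1.08. As a ratio of value + 1 the difference ran from 1.07-fold in the glomerulus of rat 1 to 4.24-fold in the collecting duct of rat 2. In a limma model of flow cell and library over the 44 runs, 28.2% of the 188 miRNAs differed among flow cells at an adjusted p of 0.05, and 4 of 9 members did. For miR-100-5p the adjusted p was 2.16e-08, and the log2 range between its highest and lowest flow cell was 1.24. That was the widest of the 82 miRNAs with a mean value of at least 50, whose median range was 0.22 and whose next widest, miR-30e-5p, was 0.69. Among all 188 it was the 4th widest. The runs of a library are repeat readings of the same molecules, so this test compares flow cells and not animals, and miR-100-5p was singled out for it after its values had been seen.

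The other guide arms moved far less. The flow-cell range was 0.34 for miR-125b-5p (limma adjusted p 5.35e-04), 0.21 for miR-99b-5p (3.26e-04), 0.18 for miR-125a-5p (0.00455) and 0.12 for miR-99a-5p (0.649). None of these 4 was higher on A and B in more than 8 of 11 libraries. Sharing its seed with miR-100-5p and differing at 4 bases (the sequences given above), miR-99b-5p thus had a range of 0.21 where miR-100-5p had 1.24.

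**Figure D4:**
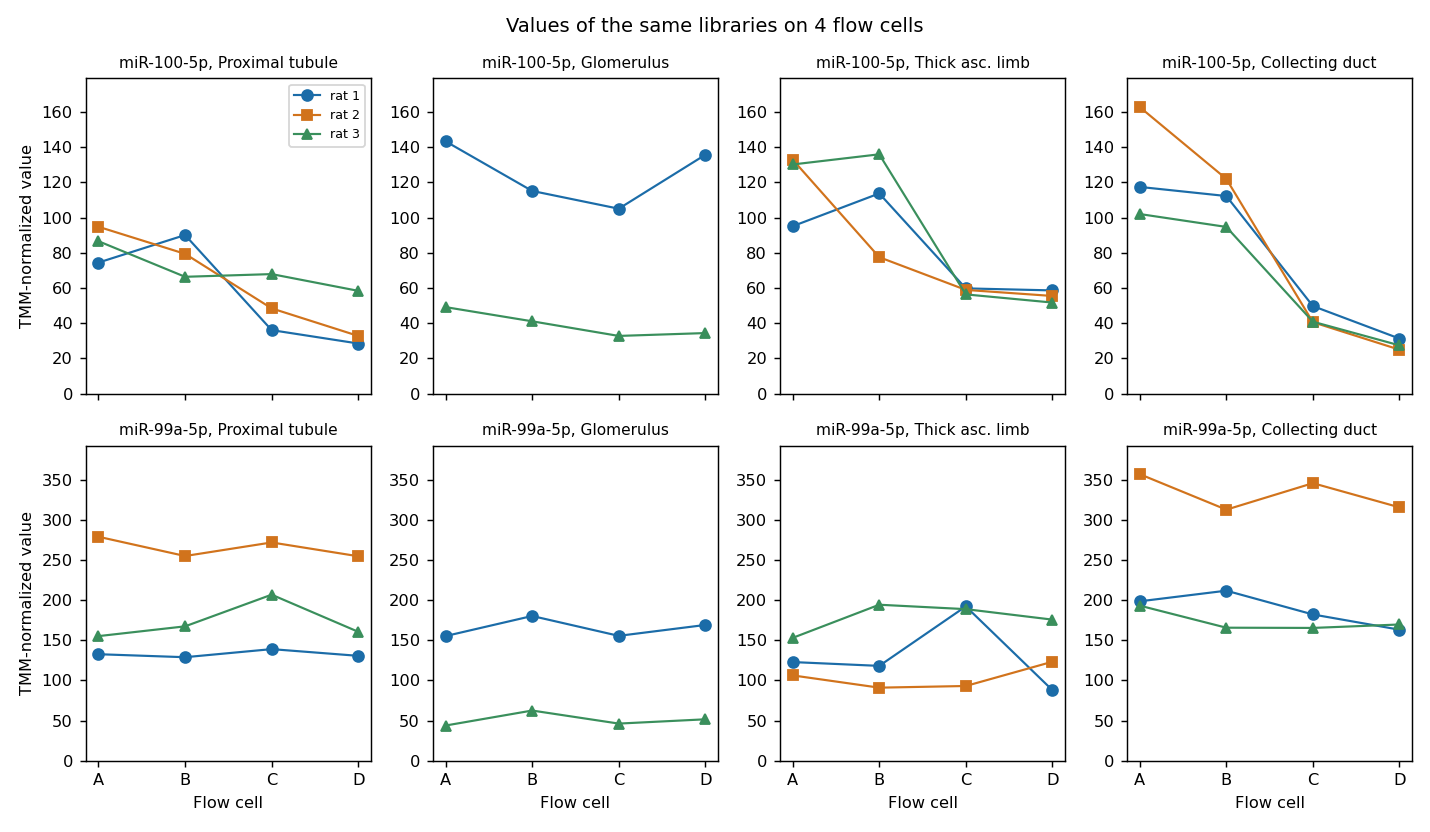
Values of miR-100-5p (upper row) and miR-99a-5p (lower row) in the same libraries on flow cells A to D, by segment, with 1 line per rat and linear axes from 0. The 3 collecting duct lines of miR-100-5p fall from 102 to 163 on A to 25.0 to 31.3 on D, and the lines of miR-99a-5p show no common step.

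The order of the segments for miR-100-5p changed with the flow cell. On A the collecting duct was highest, at 127 ± 31.6 (SD, n = 3), followed by thick ascending limb at 119 ± 21.1 (SD, n = 3), glomerulus at 96.2 ± 66.6 (SD, n = 2) and proximal tubule at 85.3 ± 10.2 (SD, n = 3). On D the collecting duct was lowest, at 27.9 ± 3.18 (SD, n = 3), below proximal tubule at 39.9 ± 16.2 (SD, n = 3), thick ascending limb at 55.3 ± 3.45 (SD, n = 3) and glomerulus at 85.1 ± 71.6 (SD, n = 2). The log2 difference of glomerulus minus collecting duct was -0.45 on A, -0.70 on B, 0.41 on C and 1.21 on D, and passed on none of them. Whether the step between flow cells differs among segments was tested by exact permutation, with p = 0.101 and an adjusted p of 0.516 over the 9 members. A mean of 4 flow cells, as used in every comparison given here for miR-100-5p, therefore averages runs that put the segments in different orders.

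The miRNA with the miR-125 seed outside the family, miR-351-5p, passed the test of glomerulus against tubules. It held 1999 and 1117 in the glomerulus of rats 1 and 3 and 137 to 421 in the 9 tubule libraries, with no overlap. Glomerulus minus the 3 tubule segments was 2.90 ± 0.50 (SE) on the log2 scale, with a limma adjusted p of 1.41e-07. In the glomerulus of rat 3 miR-351-5p was thus higher than miR-125a-5p, at 1117 against 981, while in the other 10 libraries miR-125a-5p was the higher. Of the miR-10 pair, whose seeds resemble that of miR-99/100 with a shift, miR-10a-5p was lower in glomerulus than in the tubules by -1.57 ± 0.51 (SE, limma adjusted p 0.0156), and miR-10b-5p had a difference of -0.41 with an adjusted p of 0.755.

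The listed let-7 miRNAs were tested in the same limma fit. For let-7e-5p, from between Mir99b and Mir125a, the values were 685, 702 and 976 in proximal tubule, 1313 and 162 in the glomerulus of rats 1 and 3, 511, 581 and 713 in thick ascending limb and 1174, 1270 and 1232 in collecting duct. The adjusted p over the 4 segments was 0.113 in limma, and glomerulus minus the 3 tubule segments was -0.86 with an adjusted p of 0.186. Its collecting duct libraries, like those of miR-125a-5p, were above the other 6 tubule libraries. For let-7c-5p glomerulus minus the 3 tubule segments was -1.01 with a limma adjusted p of 0.101, and for let-7a-5p -0.46 with 0.550. The 3p arms let-7e-3p and let-7c-2-3p lay the other way, at 1.16 and 0.91, with limma adjusted p-values of 0.507 and 0.617.

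Likeness was measured as Pearson's r of log2(value + 1) over the 11 libraries, among 61 non-members with a mean value of at least 100. It is a description, since the libraries share their scaling and 3 rats and the glomerulus of rat 3 is low for most miRNAs. The miRNAs most like miR-99a-5p were let-7c-5p at 0.91, let-7b-5p at 0.86 and let-7e-5p at 0.83. Over the 9 tubule libraries alone these were at 0.89, 0.64 and 0.63. The miRNAs most like miR-99b-5p were let-7b-5p and let-7d-5p, both at 0.94, and let-7c-5p at 0.92. In the tubule libraries they were at 0.86, 0.94 and 0.87. The nearest to miR-125a-5p was its cluster neighbour let-7e-5p at 0.93, which was 0.82 over the 9 tubule libraries alone, followed by miR-423-3p at 0.91 and miR-30a-3p at 0.89. In the tubule libraries miR-423-3p was at 0.93 and miR-30a-3p at 0.97. The nearest to miR-125b-5p was miR-3588 at 0.99, which was 0.98 over the tubule libraries, followed by let-7c-5p at 0.94 and miR-672-5p at 0.89. In the tubule libraries let-7c-5p was at 0.75 and miR-672-5p at 0.53. Between miR-99a-5p and miR-99b-5p r was 0.93. Among the guide arms, the only members compared, the least like the others was miR-100-5p, at 0.37 to 0.56 with the other 4 and -0.34 to 0.03 over the tubule libraries. Its nearest non-members were miR-181d-5p at 0.74, miR-181c-5p at 0.69 and miR-130a-3p at 0.63. Over the tubule libraries alone these were at 0.23, 0.92 and -0.05.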

How the data were processed

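The authors deposited a TMM-normalized signal, already filtered for low counts, per the name of their file. Bowtie 1.0.0, Bowtie2 2.2.5, Partek 6.0 and build rn6 are listed in the submitters' processing notes; their roles are not given in the sources used here. Libraries were TruSeq small RNA, read as 50 bp single ends, per the labels. A further glomerulus library labelled rat 3, marked by the submitters as removed (4 runs), is not analysed here. The series' own list of 7 members was widened by its rule to 9, adding miR-99a-5p and miR-99b-3p.

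Reads were estimated from the step between low values of a run: within a tolerance of 0.03 reads, 88.3% to 99.0% of the values under a limit of 30 reads came out whole. The rest were fractions, so no count test was run. Tests used limma 3.58.1 in R 4.3.3 on log2(value + 1), averaged over 4 runs, with segment and rat as terms and a variance trend over 11 libraries (5 residual degrees of freedom). Fold changes on this scale understate changes of low values. Limma contrasts were two-sided, and all limma tests had Benjamini-Hochberg adjustment over 188 miRNAs at 0.05. The limma and permutation tests were also tried on simulated data. The fit estimated no variance beyond this trend, so miRNAs of like abundance share it. Ratios and sums were tested by exact permutation, the ratios on the same log2 scale, with adjustment over 14 tests. Permutation tests of the step between flow cells were adjusted over the 9 members.

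The rat is a replicate block because segments come from the same animal; deviations from the segment means correlated with a median of 0.08 within rats (15 pairs) and -0.07 between rats (30 pairs). Named miRNAs are the members, listed let-7 miRNAs, miRNAs sharing a seed, the miR-10 pair and, for each 5p member, the 3 miRNAs most like it. Members, lists and tests were chosen with earlier results of these data known. Alternatives covered the pseudocount, a filter on low values, scaling, variance trend, library weights, the block, single flow cells and leaving out libraries or rats.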

Additional observations from a re-analysis of the deposited data

How the results depend on the processing

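Over 2474 member values and ratios under the alternatives, 0 calls were lost, since there were none to lose, and 44 values newly passed the threshold. In 188 the sign changed with a call in neither setting. The number of members called, 0 as reported, became for the difference among the 4 segments 1 under median-of-ratios scaling (miR-125a-5p; 35.6% of all miRNAs called) and 2 under quantile normalization (miR-100-5p and miR-125a-5p; 32.4%). For proximal tubule against collecting duct it became 1 under each of these scalings (miR-125a-5p; 21.8% and 18.6% of all) and 1 with array weights (miR-99b-3p; 22.3%). Flow cell C alone gave 1 for glomerulus against the 3 tubule segments (20.2% of all) and 1 for proximal tubule against glomerulus (17.6%), and flow cells C and D together, an alternative chosen after seeing the data, gave 1 for the former (16%), miR-125b-2-3p in each case. Leaving out 1 library or 1 rat gave 0 to 5 members for the difference among segments, 0 to 6 for glomerulus against the 3 tubule segments, 0 to 5 for proximal tubule against glomerulus, 0 to 2 for glomerulus against thick ascending limb and 0 to 6 for glomerulus against collecting duct. Every call in these ranges came from leaving out the glomerulus of rat 1 or all of rat 1. Of the 8 ratios, 1 passed on flow cell B alone (miR-99b-5p over miR-100-5p) and 2 without the replicate block, which changed no count of members called. Taking 9 members in place of 7 in the sums, also added later, changed no call, and neither did ratios of library means. Depth limits the 3p arms most: miR-99b-3p had at most 53 estimated reads in a library, and miR-125b-1-3p had none in the glomerulus of rat 3.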
